A study of Arabidopsis thaliana with 12 samples.

Results

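Calcium sensor genes of the calmodulin-like (CML) and EF-hand type were followed in roots of 7-day-old Arabidopsis thaliana Col-0 seedlings, 25 min after an elicitor was given. The set holds 9 genes: CML37, CML38, CML41, CML42, CML43, AT1G76640, AT3G01830, AT5G39670 and AT2G46600. They were chosen by name, with earlier results of these data known. Each was read by 1 probe set, out of 22746 probe sets tested, of which 13513 are annotated to a single gene. The 12 arrays fell into 4 groups, each with 3 biological replicates: control, cellobiose (a glucose disaccharide from cellulose), chitin (called chito-oligomers in the design text, from fungal walls) and oligogalacturonides (OGs, from pectin). All groups share the ecotype, age, tissue and time, and no label states a dose. Many seedlings grew together on each nylon mesh, which kept roots apart from shoots, so a sample pools plants, and the submitters screened the RNA by qRT-PCR for WRKY30 before hybridization. What that screen does to the values was not tested.

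Calcium enters the cytosol within minutes of the perception of a wall fragment, and EF-hand proteins are among the sensors that read this signal. An EF hand is a helix-loop-helix fold whose loop holds a calcium ion. Calmodulin-like proteins carry such hands, change shape when calcium binds and then act on partner proteins. Several of their genes are themselves induced by touch, wounding and microbial patterns. CML37 is known from defence against herbivores, CML38 from hypoxia and stress granules, CML41 from callose at plasmodesmata, CML42 from trichome branching and herbivore defence, and CML43 from pathogen responses. The annotation gives AT1G76640 the synonym CML39, a name that it also lists for CML37, so the locus name is kept here. It names AT3G01830, AT5G39670 and AT2G46600 by locus only, and for these 3 genes the EF-hand identity rests on the name of the set and was not checked against a sequence.

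Values are log2 probe set intensities normalized with GCRMA by the authors, and a level of 1 probe set cannot be set against that of another. Array medians lay between 6.5 and 6.6, and correlations between replicates, taken across probe sets, ran from 0.986 to 0.996. Control replicate 1 stood apart from the other controls: on the first principal component, which held 53.6% of the variance, it lay at -34.4, against -61.9 and -64.1. The elicitor arrays lay between -13.4 and 33.6. Only 3 of 10 listed root markers and 1 of 7 shoot markers had a named probe set. The root genes PYK10, EXPA7 and EXPA18 averaged 13.44, 9.68 and 9.82 in controls. The shoot marker RCA was at 11.11 ± 0.56 in controls, 10.14 ± 0.69 with cellobiose, 10.84 ± 0.19 with chitin and 10.71 ± 0.20 with OGs (SD, n = 3), and none of the 4 passed a test with any elicitor. In whole roots, a change in the number of cells that express a gene cannot be told apart from a change per cell.

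With cellobiose 5 of the 9 genes rose, with chitin 5 and with OGs 4, and none fell (limma, adjusted p under 0.05 over all probe sets). Of all probe sets, 4.73%, 4.97% and 3.18% rose in these comparisons, and 3.91%, 3.83% and 0.884% fell. Since the genes were chosen with earlier results of these data known, their counts beside such shares are no test of the set. The arrays of the elicitor lay wholly above the controls at 6, 6 and 5 of the 9 genes, and at 9.78%, 10.1% and 8.18% of all probe sets. CML42, AT5G39670 and AT3G01830 rose with every elicitor. CML37 rose with cellobiose and chitin, CML43 with cellobiose and OGs, and AT2G46600 with chitin. CML38, CML41 and AT1G76640 passed with no elicitor. For scale, the mean of WRKY53, a defence transcription factor gene, went from 6.62 in controls to 12.68, 12.91 and 11.89 with cellobiose, chitin and OGs. The median change of the 9 genes was 0.71 log2 with cellobiose, 1.49 with chitin and 0.71 with OGs, where the medians of all probe sets were -0.03, -0.04 and -0.03. The 3 comparisons share their control arrays, so they are not independent of each other. All 4 calls with OGs ended in ordinary t tests without variance moderation, while the 5 calls with cellobiose and the 5 with chitin passed those as well. Those tests called 4.42%, 4.88% and 0.347% of all probe sets with cellobiose, chitin and OGs, in either direction. In limma these shares were 8.64%, 8.8% and 4.06%, so the loss with OGs was not particular to these genes. Higher levels made up 54.8%, 56.4% and 78.2% of all calls with cellobiose, chitin and OGs. In ordinary t tests they made up 62.8%, 66.9% and 88.6%. In ordinary t tests after scaling the arrays to the spike-in RNAs they made up 99.4%, 97.9% and 100%. With limma but without control replicate 3 they made up 78%, 79.4% and 95.7%. The share of falls over all genes thus varied with the setting, and the cause was not tested. Without control replicate 3, only CML42 and AT5G39670 passed with OGs, and with OGs and control arrays alone only CML42 did. In these settings 0.91% and 0.642% of all probe sets passed with OGs.

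**Figure D1:**
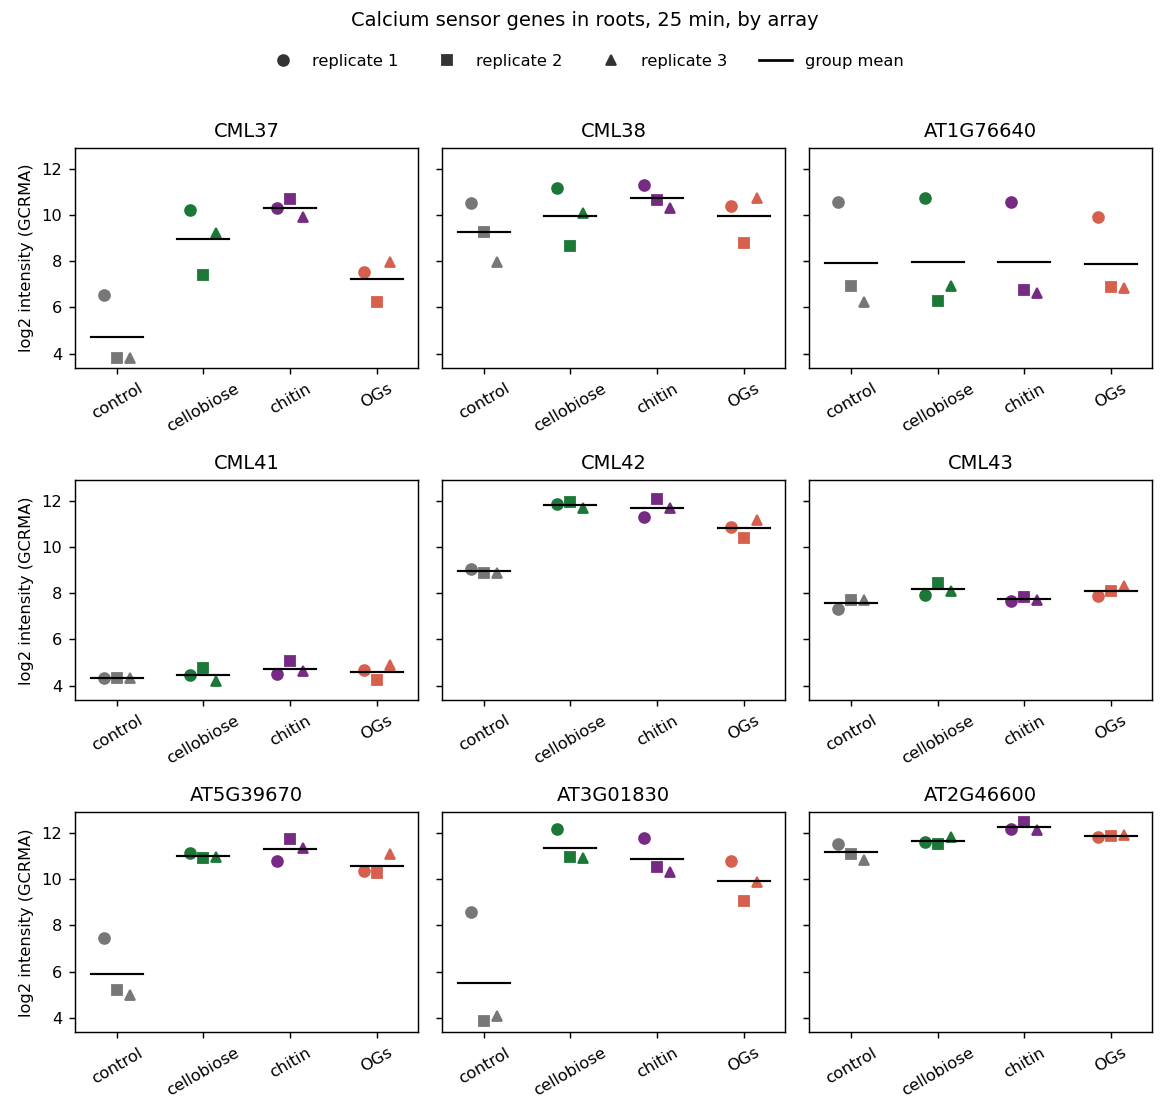
Log2 probe set intensity of the 9 genes on each of the 12 arrays, with 1 panel per gene, groups on the horizontal axis, marker shape for the replicate number and a bar for the group mean. CML42 is low in all controls and high on all elicitor arrays, AT5G39670 and AT3G01830 are raised in control replicate 1, and AT1G76640 is above 9 on every replicate 1 array and below 7 on the rest.

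AT3G01830 had the largest fitted mean change of the set over the 3 elicitors. Controls near a level of 4 or lower, as here and in CML37, GLR2.8 and GLR2.9, cannot be placed above background on these arrays, so the size of a fold against them is uncertain. Its control arrays read 8.59, 3.88 and 4.07 in replicates 1, 2 and 3. Cellobiose arrays read 12.16, 10.96 and 10.89, chitin arrays 11.77, 10.53 and 10.30, and OGs arrays 10.80, 9.04 and 9.88. Every elicitor array lay above every control, and control replicate 1 came within 0.45 of the lowest of them. The gene rose 56.7-fold with cellobiose (5.82 ± 0.66 log2, SE; limma, adjusted p = 0.000829), 40.9-fold with chitin (5.35 ± 0.66; adjusted p = 0.00114) and 21-fold with OGs (4.39 ± 0.66; adjusted p = 0.00772). The log2 ratios within replicate 1 were 3.57, 3.17 and 2.21 with cellobiose, chitin and OGs, and those within replicates 2 and 3 ran from 5.16 to 7.08. Without control replicate 1 the log2 changes were 6.93, 6.45 and 5.50. Without control replicate 3 the OGs change was 3.85 and did not pass (adjusted p = 0.0556).

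AT5G39670 had the next largest mean change. Its controls read 7.46, 5.22 and 5.0, cellobiose arrays 11.13, 10.89 and 10.95, chitin arrays 10.78, 11.71 and 11.34, and OGs arrays 10.33, 10.24 and 11.10. The groups did not overlap with control, and the lowest elicitor array stood 2.78 above the highest control. The gene rose 34.3-fold with cellobiose (5.10 ± 0.56 log2, SE; limma, adjusted p = 0.000743), 41.8-fold with chitin (5.38 ± 0.56; adjusted p = 0.000536) and 25.3-fold with OGs (4.66 ± 0.56; adjusted p = 0.00334). Ratios within replicate 1 were again the smallest, at 3.68, 3.32 and 2.87 log2, against 5.01 to 6.48 within the other replicates. Without control replicate 1 the changes were 5.98, 6.26 and 5.54 log2. With cellobiose its 3 arrays spread by only 0.13 (SD), where the controls spread by 1.36.

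CML37 had its highest mean with chitin and its lowest elicitor mean with OGs. Controls read 6.54, 3.83 and 3.80, and OGs arrays 7.54, 6.24 and 7.96. Cellobiose arrays read 10.19, 7.40 and 9.21, and chitin arrays 10.29, 10.70 and 9.92. All 3 chitin arrays lay above all OGs arrays, as they did at 4.72% of all probe sets. OGs replicate 2 fell below control replicate 1, so that OGs and control overlapped. The gene rose 18.5-fold with cellobiose (4.21 ± 0.65 log2, SE; limma, adjusted p = 0.00433) and 47.7-fold with chitin (5.58 ± 0.65; adjusted p = 0.000884). With OGs it was 2.52 ± 0.65 log2 higher, positive in 3 of 3 pairs, but did not pass (adjusted p = 0.0703). Without control replicate 1 the OGs difference was 3.17 log2 and passed (adjusted p = 0.0361), and the cellobiose and chitin changes were 4.86 and 6.23. Without chitin replicate 2 the chitin change was 4.81.

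CML42 gave the steadiest response of the set. Controls read 9.06, 8.87 and 8.89, cellobiose arrays 11.85, 11.93 and 11.67, chitin arrays 11.30, 12.07 and 11.68, and OGs arrays 10.87, 10.38 and 11.15. Every elicitor array stood at least 1.32 above the highest control, and control replicate 1 was only 0.17 above the next control. The gene rose 7.35-fold with cellobiose (2.88 ± 0.23 log2, SE; limma, adjusted p = 0.000161), 6.72-fold with chitin (2.75 ± 0.23; adjusted p = 0.000188) and 3.63-fold with OGs (1.86 ± 0.23; adjusted p = 0.00334). Elicitor group accounted for 96% of its sum of squares over the 12 arrays, a share that 0.22% of all probe sets reached. In an ordinary t test the OGs call ended (adjusted p = 0.0641).

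CML43 and AT2G46600 had smaller changes. CML43 averaged 7.57 ± 0.22 in controls, 8.17 ± 0.26 with cellobiose, 7.74 ± 0.10 with chitin and 8.10 ± 0.22 with OGs (SD, n = 3). It rose 1.51-fold with cellobiose (limma, adjusted p = 0.010), with no overlap, while chitin arrays, at 7.66 to 7.85, overlapped the controls, at 7.31 to 7.70. The rise of CML43 with OGs, 0.52 ± 0.11 log2 (SE; adjusted p = 0.0306), was fragile: with no replicate block it did not pass (adjusted p = 0.110), and it ended without any of 5 of the 6 arrays, OGs replicate 2 being the exception. Without all replicate 1 arrays its cellobiose call ended too (adjusted p = 0.145).

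AT2G46600 had controls of 11.53, 11.10 and 10.84, and chitin arrays of 12.17, 12.45 and 12.11. Cellobiose arrays read 11.58, 11.53 and 11.81 and OGs arrays 11.80, 11.85 and 11.90. All elicitor arrays stood above all controls, with cellobiose by as little as 0.01. The gene rose 2.13-fold with chitin (1.09 ± 0.17 log2, SE; limma, adjusted p = 0.00395). The differences with cellobiose (0.48 ± 0.17; adjusted p = 0.126) and OGs (0.69 ± 0.17; adjusted p = 0.0575) did not pass. Without control replicate 1 both did, at 0.70 log2 (adjusted p = 0.0218) and 0.91 log2 (adjusted p = 0.0103), and the OGs difference also passed with no replicate block (adjusted p = 0.036).

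**Figure D2:**
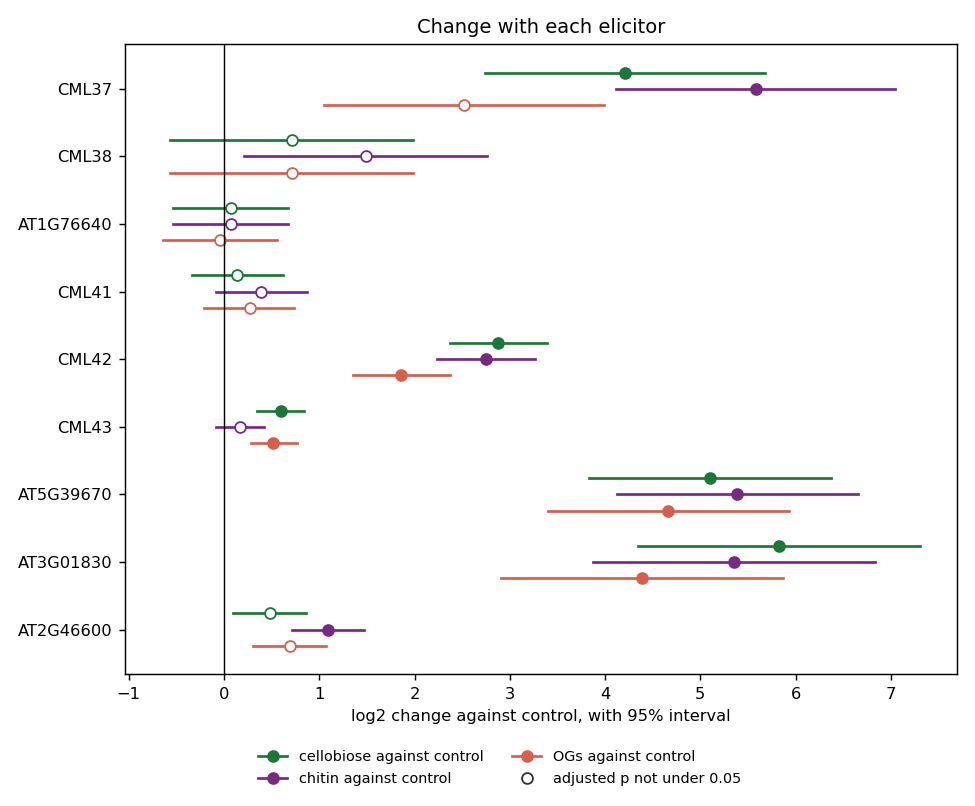
Log2 change of each gene against control with 95% intervals from the limma fit, by elicitor, with filled points where the adjusted p was under 0.05. Intervals for CML42, AT5G39670 and AT3G01830 lie wholly above 1 with all elicitors, while those of AT1G76640 and CML41 include 0 each time.

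AT1G76640 and CML38 are neighbours in the RefSeq gene order, with no annotated gene between them. AT1G76640 read 10.54 in control, 10.73 with cellobiose, 10.57 with chitin and 9.89 with OGs on the replicate 1 arrays. On the other 8 arrays it lay between 6.24 and 6.93. The level was thus high in 1 replicate of every group, control included, and the replicate 1 arrays averaged 3.76 log2 above the rest. Replicate number held 97.6% of its sum of squares and elicitor group 0.0701%. It was the only probe set of the 22746 (0.0044%) with so high a replicate share. Its differences from control were 0.07 with cellobiose, 0.07 with chitin and -0.04 with OGs (SE 0.27 each), with 95% intervals of -0.53 to 0.67, -0.53 to 0.67 and -0.64 to 0.56. These intervals exclude a change of 2-fold in either direction within a replicate. With no replicate block the SE was 1.54.

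CML38 shared part of that pattern. Controls read 10.53, 9.26 and 7.97, cellobiose arrays 11.17, 8.66 and 10.06, chitin arrays 11.28, 10.66 and 10.28, and OGs arrays 10.36, 8.80 and 10.72. Chitin arrays were the highest as a group, and all groups overlapped. Replicate number held 38.3% of the sum of squares, elicitor group 26.9%. The differences from control were 0.71 (95% interval -0.57 to 1.98), 1.49 (0.21 to 2.76) and 0.71 log2 (-0.57 to 1.98) with cellobiose, chitin and OGs, and none passed (limma, adjusted p = 0.56, 0.151 and 0.625). With chitin the ratio was positive in 3 of 3 pairs, and it passed when chitin and control arrays alone were fitted (adjusted p = 0.0312). Control replicate 3, the lowest array, carried much of these differences: without it they were 0.00, 0.78 and 0.00 log2 with cellobiose, chitin and OGs.

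CML41 stayed between 4.22 and 5.08 on all arrays and failed the low-value filter (log2 of at least 5 on at least 3 arrays). Its controls lay within 0.02 of each other, at 4.33, 4.34 and 4.35. The largest difference, with chitin, was 0.39 log2 (95% interval -0.08 to 0.87; limma, adjusted p = 0.311), although the chitin arrays, at 4.49, 5.08 and 4.63, did not overlap the controls. With no detection call, a level this low cannot be placed above or below background, and the same holds for CML37 and AT3G01830 in control replicates 2 and 3.

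**Figure D3:**
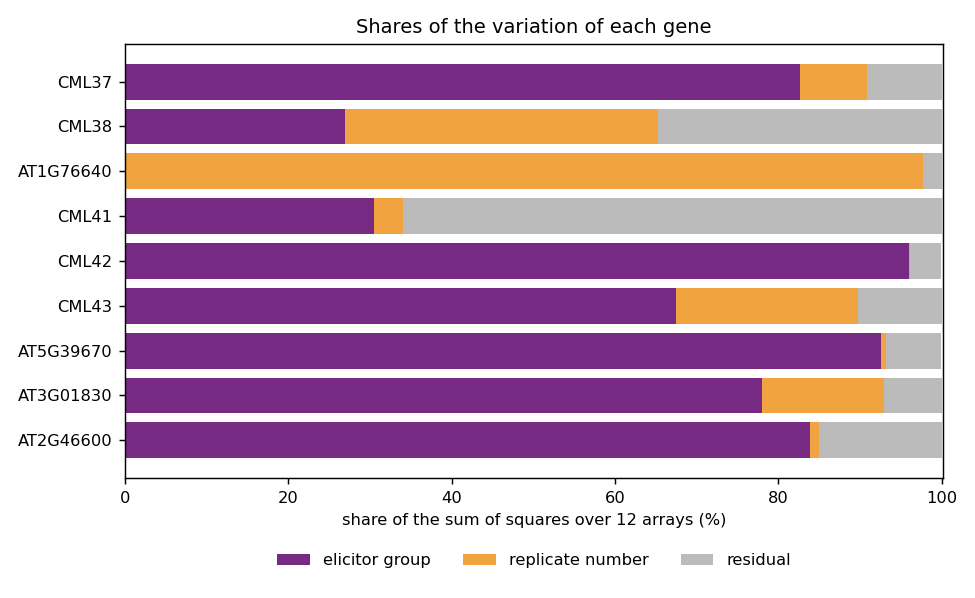
Share of each gene's sum of squares over the 12 arrays that went with elicitor group, with replicate number and with neither (residual), in percent. CML42 and AT5G39670 are almost all elicitor group, AT1G76640 is almost all replicate number, and CML41 is mostly residual.

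Control replicate 1 moved with several of these values. It exceeded both other controls by at least 2 log2 for CML37, AT1G76640, AT5G39670 and AT3G01830, 4 of the 9 genes, where 0.462% of all probe sets did so. The excess over the higher of the other controls was 2.71, 3.60, 2.23 and 4.52 log2 for these genes. For CML41, CML42 and CML43 it was -0.02, 0.17 and -0.39. The poly-A spike-ins, RNAs added to each sample, averaged 7.28 on that array and 6.80 on both other controls, and from 6.42 to 6.90 on the elicitor arrays. The part of sample handling and of array scaling in this was not tested. With all 4 replicate 1 arrays left out, a setting chosen after these values had been seen, 4, 5 and 3 of the genes rose with cellobiose, chitin and OGs, and the changes of AT3G01830 were 6.95, 6.44 and 5.48 log2. In that setting 2.86%, 4.92% and 1.6% of all probe sets passed in either direction, and 86%, 72.9% and 94.5% of those were higher.

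The elicitors were next compared with each other at the same 9 genes. Since doses are not given, matched doses cannot be assumed. None of the 27 differences passed over all probe sets (limma), and 8 had an unadjusted p under 0.05. Over the whole table, 0.0176%, 0.044% and 0.106% of probe sets passed between cellobiose and chitin, cellobiose and OGs, and chitin and OGs, and 5.68%, 5.44% and 6.36% had an unadjusted p under 0.05. In the same order, the arrays of the first elicitor lay wholly above the second at 1, 2 and 3 of the 9 genes. They lay wholly below at 1, 0 and 1. Of all probe sets, 4.93%, 3.83% and 4.72% lay wholly above and 5.13%, 5.08% and 4.89% wholly below. No member passed under any alternative tried, ordinary t tests included.

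The widest gap was that of CML37 between chitin and OGs, 3.06 log2 (95% interval 1.59 to 4.52; adjusted p = 0.202), with group means of 10.30 and 7.25 and chitin higher in 3 of 3 pairs. Between cellobiose and OGs it was 1.69 log2 (0.22 to 3.16) and between cellobiose and chitin -1.37 log2 (-2.84 to 0.10). Without chitin replicate 2 the gap between chitin and OGs was 2.29 log2 and that between cellobiose and chitin -0.60. CML42 was higher with cellobiose than with OGs by 1.02 log2 (0.51 to 1.53; adjusted p = 0.31), and with chitin than with OGs by 0.89 log2 (0.38 to 1.4; adjusted p = 0.33), both without overlap of the arrays. For the same gene cellobiose and chitin differed by 0.13 log2 (-0.38 to 0.64), so a difference of 2-fold between them lay outside the interval.

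CML43 and AT2G46600 differed in opposite directions between cellobiose and chitin. CML43 was 0.43 log2 higher with cellobiose (95% interval 0.18 to 0.67; limma, adjusted p = 0.689), and AT2G46600 had a difference of -0.61 log2, cellobiose minus chitin (-0.99 to -0.23; adjusted p = 0.747). In both genes the 3 arrays of 1 elicitor lay above the 3 of the other. Cellobiose lay wholly above chitin at 4.93% of all probe sets and wholly below at 5.13%. Between chitin and OGs CML43 stood at -0.35 log2 (-0.60 to -0.10) and AT2G46600 at 0.40 log2 (0.02 to 0.78). For AT5G39670 the intervals were wide: -1.55 to 0.98 between cellobiose and chitin, -0.83 to 1.70 between cellobiose and OGs and -0.55 to 1.99 between chitin and OGs. AT3G01830 was 1.43 log2 higher with cellobiose than with OGs (-0.05 to 2.91), and its arrays did not overlap there.

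**Figure D4:**
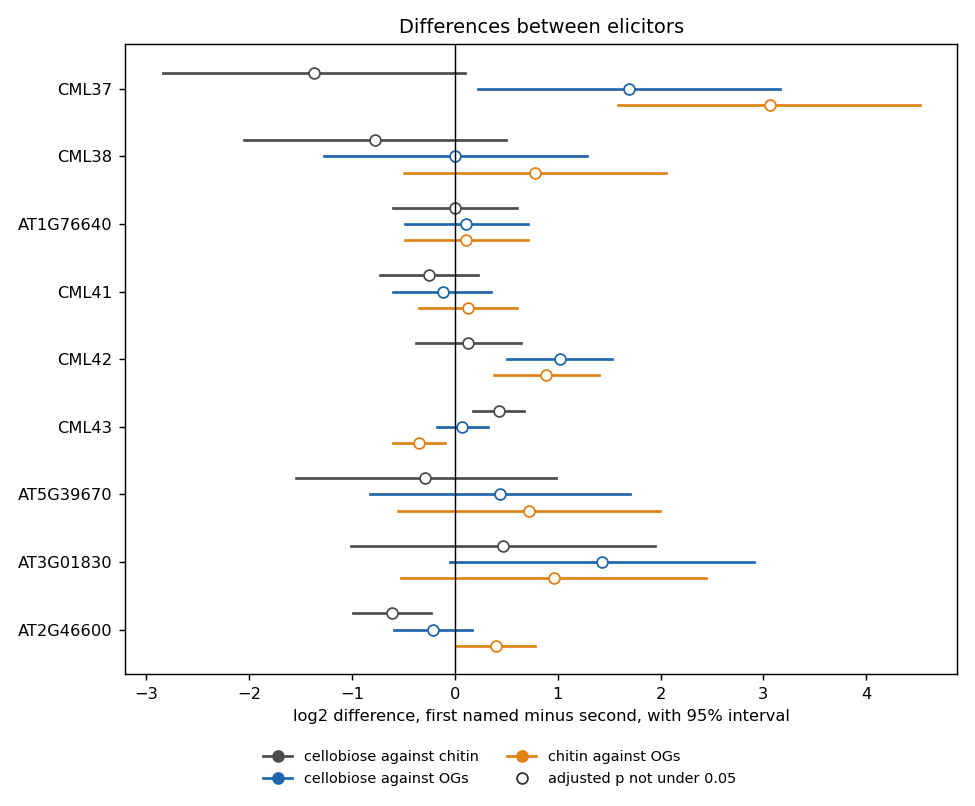
Log2 differences between elicitors for each gene, first named minus second, with 95% intervals. No difference had an adjusted p under 0.05, and CML37 between chitin and OGs, at 3.06, is the farthest from 0.

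A match by name found 26 other probe sets of 1 gene in calcium signalling. They comprised 8 glutamate receptor-like (GLR) channel genes, 15 IQD genes, whose proteins bind calmodulin through IQ motifs, and 3 further sensors, namely CML23, CML30 and CaS, a calcium-sensing protein of chloroplasts. No calcium-dependent kinase or pump was among them by name. The match used gene symbols and synonyms, and 8730 probe sets are unnamed here. The 26 therefore do not stand for calcium signalling as a whole. With chitin 2 of 26 rose and 1 fell, with cellobiose 0 rose and 1 fell, and with OGs 0 passed. Among all probe sets 4.97% rose and 3.83% fell with chitin, and 4.73% rose and 3.91% fell with cellobiose. With OGs 3.18% rose and 0.884% fell, so that the counts of adjusted calls among the 26 are near the background. At an unadjusted p under 0.05 in limma there were 6, 10 and 8 of 26 with cellobiose, chitin and OGs, where 21.6%, 23% and 16.8% of all probe sets met that rule. The count with cellobiose was near that share, and those with chitin and OGs were above it. In ordinary t tests no gene passed with OGs either. The medians of the 26 were 0.06, -0.02 and -0.01 log2 with cellobiose, chitin and OGs, against -0.03, -0.04 and -0.03 for all probe sets.

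The rises with chitin were GLR2.8 and GLR2.9. GLR2.8 read 4.43, 4.03 and 3.92 in controls and 7.62, 9.25 and 8.61 with chitin (4.36 ± 0.65 log2, SE; limma, adjusted p = 0.0031). GLR2.9 read 3.59, 3.51 and 3.35 in controls and 4.19, 5.21 and 4.99 with chitin (1.31 ± 0.30; adjusted p = 0.0251), and its call ended in an ordinary t test and without control replicate 2, control replicate 3, chitin replicate 2 or chitin replicate 3. Cellobiose left these genes at 1.73 and 0.48 log2 and OGs at 1.45 and 0.47, and none of these differences passed, although GLR2.8 did with cellobiose when those and the control arrays alone were fitted. Family members can share probe sequence, so their readings may not be independent. IQD26 fell by 0.44 ± 0.11 log2 with cellobiose (adjusted p = 0.0461) and fell by 0.47 ± 0.11 with chitin (adjusted p = 0.0349), and both calls ended in ordinary t tests and without any single array of the groups compared. After spike-in scaling these differences were -0.07 and -0.26.

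Of the other sensors, CML23 read 7.68, 6.30 and 5.98 in controls, 7.91, 7.79 and 7.40 with chitin and 7.63, 7.63 and 7.95 with OGs. Control replicate 1 was again the high control. Its differences of 1.05 and 1.09 ± 0.33 log2 did not pass with chitin (adjusted p = 0.0844) or OGs (adjusted p = 0.113). Both passed without control replicate 1. CML30 was at 0.26, -0.03 and 0.21 log2 with cellobiose, chitin and OGs. CaS was at -1.11 ± 0.36 log2 with cellobiose (adjusted p = 0.0975), beside RCA, whose mean was 10.14 there and 11.11 in controls. The part of shoot RNA in this was not tested.

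**Figure D5:**
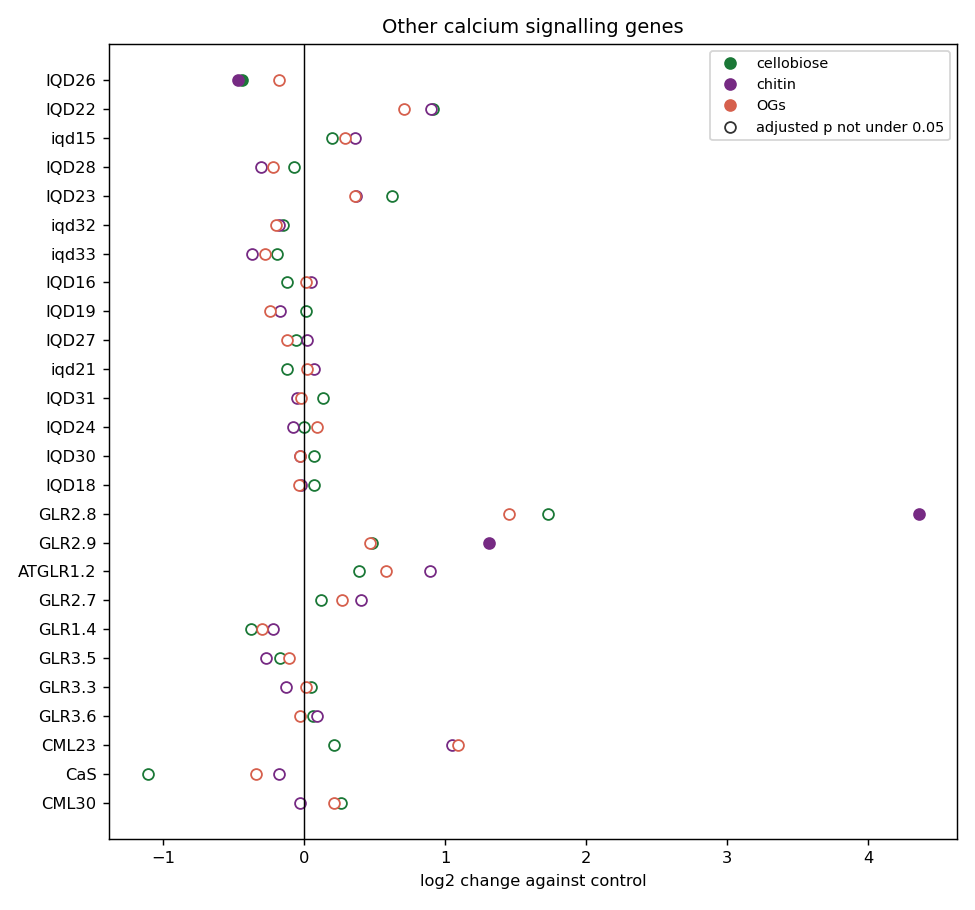
Log2 change against control of the 26 other calcium signalling probe sets with cellobiose, chitin and OGs, with filled points where the adjusted p was under 0.05. Of the 78 changes 65 lie within 0.5 of 0, and GLR2.8 with chitin, at 4.36, stands farthest out.

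Genes with the most similar profile were sought among 13504 other probe sets of 1 gene. Likeness was the root mean square (RMS) difference over the 12 arrays after each profile had been centred on its own mean. CML42 had pEARLI4 as its closest match, at an RMS of 0.17 log2, where the median over all candidates was 1.19. pEARLI4 changed by 2.57, 2.72 and 1.76 log2 with cellobiose, chitin and OGs, beside 2.88, 2.75 and 1.86 for CML42. The match was picked over these same arrays, so the like changes are no separate result. For AT5G39670 the nearest were AT5G28610 (0.40), AT2G22880 (0.44) and AT5G64870 (0.50), against a median of 2.30. AT3G01830 lay nearest to AT2G24600 (0.90), AT2G18210 (0.92) and AT5G28610 (0.93), with a median of 2.63.

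CML37 was closest to AT1G35210 (0.57), AT1G24140 (0.69) and AT1G58420 (0.81), against a median of 2.3. Each of these shared the order of chitin over cellobiose over OGs, with 4.91, 3.67 and 2.32 log2 for AT1G35210. They were picked for likeness over these same arrays, so a shared order is no separate result. The nearest gene to AT1G76640 was AT1G32970 (0.40, median 1.80), which stood 1.10, 0.74 and 0.48 log2 above control. The nearest to CML38 was AT5G44350 (0.45, median 1.03), to AT2G46600 AT5G08240 (0.16, median 0.46), to CML43 AT2G39210 (0.11, median 0.34) and to CML41 AT1G50400 (0.13, median 0.31). Within the set, AT5G39670 and AT3G01830 were each other's nearest, at 0.95, as were CML41 and CML43, at 0.33. The value for CML41 and CML43 lay near their medians over all candidates, so it marks no special likeness. AT1G76640 lay farthest from AT5G39670, at 2.77.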

How the data were processed

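The authors deposited log2 probe set intensities from Affymetrix ATH1 arrays normalized with GCRMA, per the labels and the series' design text; Affymetrix Expression Console is named in the submitters' processing notes. Of 22810 rows, 64 control probe sets were kept apart. Gene names came from GEO's annotation of the array, updated through RefSeq (TAIR10.1) by gene ID; 8730 are unnamed here. All 9 genes matched 1 probe set each. One linear model with 4 groups and the replicate number as a block was fitted to 12 arrays (limma 3.58.1, R 4.3.3, eBayes; degrees of freedom: residual 6, prior 3.09). The block follows the elicitor to control ratios per sample pair in the design text. Tests were two-sided, adjusted by Benjamini-Hochberg over 22746 probe sets, and called under 0.05. The script was tested on simulated data. Scaling between arrays hides a shift common to all genes, and the number of arrays limits precision. The genes and lists were chosen with earlier results of these data known. Named are the 9 genes, up to 3 called genes per calcium class by moderated F test, and nearest profiles, 3 for the genes with the largest mean changes and 1 for the rest. CP1, a cysteine proteinase whose symbol matched the calcium list, was left out. Alternatives were no block, only the groups compared, ordinary t tests, a trended robust prior, a low-value filter (log2 of at least 5 on at least 3 arrays), median centring, scaling to 24 poly-A spike-in probe sets with ordinary t tests, single arrays left out and a 2-fold minimum. Replicates are biological per the design text.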

Additional observations from a re-analysis of the deposited data

How the results depend on the processing

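The counts of calcium sensor genes that rose with cellobiose and chitin stayed within 1.5 times of 5 under every alternative, and no gene passed between elicitors under any. With OGs 4 rose, but 0 with ordinary t tests and 1 with only the groups compared, and from 2 to 5 with single arrays left out. Over all probe sets 4.06% were called with OGs, but 0.347% with ordinary t tests and 0.642% with only the groups compared. Of the 26 other calcium genes, 1 passed with cellobiose, but 0 with ordinary t tests, a trended robust prior or a 2-fold minimum, and 2 with no replicate block, the low-value filter, spike-in scaling or only the groups compared (0 to 1 with arrays left out, where the genes were IQD22 or CaS and never IQD26). With chitin 3 passed, but 5 with no replicate block, 1 with ordinary t tests, 5 with median centring, 6 with only the groups compared, and 1 to 5 with arrays left out. With OGs 0 passed, and 0 to 1 with arrays left out. The cause was not tested. The low-value filter kept 15204 probe sets and 8 of the 9 genes. After spike-in scaling the median of all probe sets was 0.34, 0.17 and 0.20 log2 with cellobiose, chitin and OGs, in place of -0.03, -0.04 and -0.03. It turned the direction of no call among the 9 genes. With it 5, 5 and 3 of them rose, and 4.12%, 3.21% and 1.3% of all probe sets passed in either direction.

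Same-numbered arrays deviated from their group means with correlations from -0.167 to 0.592 across probe sets, and differently numbered arrays from -0.605 to 0.574. The numbers were thus not shown to pair all samples. Replicate 1 arrays correlated with each other at 0.301 to 0.592. Control replicate 2 stood at 0.574 with cellobiose replicate 3 and at -0.167 with cellobiose replicate 2. Counts of pairs and ratios within replicates 2 and 3 therefore rest on the labels. With no replicate block 5, 5 and 4 of the 9 genes rose, and 7.89%, 8.09% and 3.75% of all probe sets passed in either direction. CML43 lost and AT2G46600 gained a call with OGs there. Only differences that did not pass changed sign. With single arrays, or all replicate 1 arrays, left out, AT1G76640 ranged from -0.18 to 0.38 with cellobiose, -0.18 to 0.24 with chitin and -0.29 to 0.27 with OGs. Between elicitors it ranged from -0.17 to 0.31 (cellobiose minus chitin), -0.25 to 0.43 (cellobiose minus OGs) and -0.20 to 0.27 (chitin minus OGs). CML41 ranged from 0.00 to 0.31 with cellobiose, -0.41 to 0.09 for cellobiose minus OGs and -0.16 to 0.34 for chitin minus OGs. For cellobiose minus chitin CML42 ranged from -0.10 to 0.38 and AT5G39670 from -0.78 to 0.11. For cellobiose minus OGs CML38 ranged from -0.40 to 0.66 and CML43 from -0.03 to 0.17. With spike-in scaling AT1G76640 was at 0.18 with OGs and 0.17 for cellobiose minus chitin, and CML41 at 0.03 for cellobiose minus OGs.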

Other observations

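Replicate number held over 90% of the sum of squares at 38 probe sets, 0.167% of those tested, of which 17 are named by 1 gene. AT1G76640 led them at 97.6%, followed by AT5G19110 (97.4%), AT1G06620 (95.3%) and AT2G22760 (94.2%). These levels differed between the replicate 1 arrays and the rest by 3.76, 2.59, 1.57 and 4.34 log2, each higher in replicate 1. These genes were chosen after their values had been seen, and the labels say nothing of what set replicate 1 apart.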
